A study of Mus musculus with 9 samples.

Results

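Wild-type CD8+ T cells of the mouse were compared after 24 h in medium with 2 mM inosine or with 2 mM glucose, as groups and as pairs of libraries of equal number. It used 6 of the 9 RNA-seq samples of the series: glucose replicates 1, 2 and 3 and inosine replicates 1, 2 and 3. All 6 libraries were chosen by their labels, and no measured value entered that choice. Both media held 10% dialyzed fetal bovine serum, which carries little of the small molecules of whole serum. Live cells, about 80%, were sorted before RNA extraction, and every library has the same batch label, Day 0. The labels give no animal, activation protocol or culture for a library, and they do not say what a replicate number stands for. P-values below thus set a difference against the scatter of these particular libraries, and that scatter may be technical.

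Inosine is a purine nucleoside. Inside the cell, purine nucleoside phosphorylase, encoded by Pnp, splits it into hypoxanthine and ribose 1-phosphate. The sugar can enter the pentose phosphate pathway and, through it, glycolysis, while hypoxanthine can be salvaged to nucleotides by Hprt or oxidized. The question of the comparison is which transcripts of an effector CD8+ T cell differ when this ribose source replaces glucose.

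Expression was deposited as FPKM, the fragments counted for a gene scaled by gene length and by library size, for 20618 genes. Whole reads per gene, solved from the deposited group means, summed to between 30857336 and 50107284 per library, and between 16245 and 17217 genes per library were above 0. The label was checked against T cell markers. Cd8a was between 69.7 and 91.9 FPKM, Cd8b1 between 83.8 and 114.9, and Cd3e between 78.7 and 105.2. The 6 CD8 T cell markers found in the table summed to 794.9 to 856.5 FPKM in glucose and 736.9 to 932.5 in inosine. The 4 CD4 T cell markers summed to at most 6.74 FPKM in any library, the 5 B cell markers to at most 1.84, the 6 myeloid markers to at most 4.27 with 2 of them at 0 in every library, and the 5 natural killer markers to at most 12.5. Dendritic cell markers summed to 0.519 to 3.05 FPKM in glucose and 0.709 to 0.881 in inosine.

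Few differences between the media were detected. The limma group test on log2(FPKM + 1) called 0 of 20618 genes at a Benjamini-Hochberg adjusted p under 0.05, and 459 genes, 2.23% of those tested, had an unadjusted p under 0.05. Of these 459, 225 were higher with inosine (1.09%) and 234 lower (1.13%). With the replicate number as a block, limma again called 0 genes, with 488 (2.37%) at an unadjusted p under 0.05. A total of 9879 genes averaged 1 FPKM or more over the 6 libraries, and among them the median size of the difference was 0.07 on the log2 scale, and its 95th percentile was 0.19. In that set, 14 genes differed by 0.5 or more and 3 by 1 or more. The 95% interval of the difference lay within minus 0.5 to plus 0.5 for 94.4% of these genes in the group fit and for 98.9% with the block. When low genes were left out, the block fit called 3 genes, all higher with inosine (0.0304% of 9879): Trex1, Exosc6 and Atrip. The test without the block called 0 of the same genes, with 102 (1.03%) at an unadjusted p under 0.05. Exosc6 passed the filter only through its inosine libraries. The filter also changed how much the fit borrowed across genes, since the median total degrees of freedom were 3.35 with the block over all genes and 28.8 over genes of at least 1 FPKM. On simulated data, both fits over all genes recovered far fewer of the known changes than the block fit with that filter. The simulation gave libraries of equal number the same starting level and every gene the same spread. It also drew its changed genes from those of at least 1 FPKM, so its setting favoured the block and the filter. Real libraries of equal number were not that alike, as given below. The 0 calls over all genes do not by themselves show that no gene differed.

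Libraries of equal number were compared next. The spread of the log2 difference between glucose and inosine libraries of the same number, as an SD over the 9879 genes, was 0.16 for number 1, 0.25 for number 2 and 0.14 for number 3. Within glucose, replicates 1 and 2 were 0.26 apart on the same measure, replicates 1 and 3 were 0.19 apart, and replicates 2 and 3 were 0.15 apart. Within inosine, the same 3 spreads were 0.32, 0.18 and 0.24. Cells of 1 medium thus differed among themselves by as much as the media differed from each other. The replicate number took 53.3% of the sum of squares within these genes, the medium 12.9% and the remainder 33.9%, where the number has 2 degrees of freedom, the medium 1 and the remainder 2. Each library's deviation from its group mean was then correlated across genes with that of each library in the other medium. Genes are not independent replicates, so these values are descriptions. The correlation was 0.41 for the 2 libraries numbered 1, 0.26 for those numbered 2 and -0.26 for those numbered 3. It was -0.41 for glucose replicate 1 with inosine replicate 2, -0.33 for glucose replicate 2 with inosine replicate 1, and 0.32 for glucose replicate 3 with inosine replicate 2.

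Some of the variation between numbers was shared by the media. The change from replicate 1 to replicate 2 in glucose correlated with the same change in inosine across the 9879 genes (Pearson r = 0.38, Spearman rho = 0.19). For replicate 3 against 1 the correlation was weaker (r = 0.24, rho = 0.12), and for replicate 3 against 2 it was near 0 or negative (r = -0.02, rho = -0.16). Of the genes averaging 5 FPKM or more that differed by more than 1 (log2) between glucose replicates 1 and 2, 51 in all, 51 differed in the same direction between the 2 inosine libraries. Of these, 33 differed by that much in inosine as well. Among all 9879 genes, 2878 were higher and 2292 lower in replicate 2 than in replicate 1 in both media. A limma F test of the number terms called 0 of 20618 genes (1461, or 7.09%, at an unadjusted p under 0.05), 296 of the 9879 genes of at least 1 FPKM (3%), and 433 of 13336 with voom on whole reads (3.25%). Of the 296, 141 were higher in number 2 than in number 1 in both media, 152 were lower in both, and 3 went in opposite directions. The F test passes genes whose numbers differ alike in both media, so this agreement largely follows from the choice. In 272 of the 296, number 3 lay between numbers 1 and 2 in both media.

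**Figure D1:**
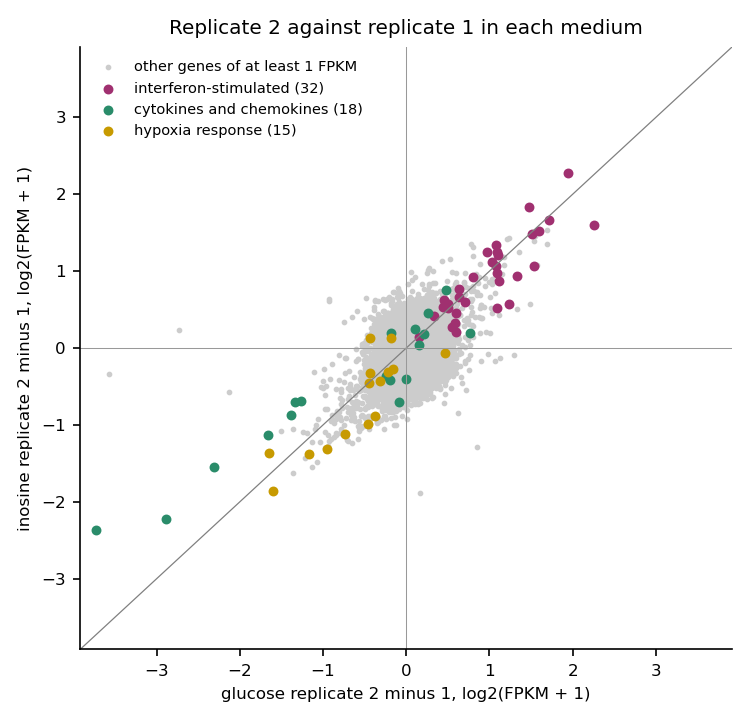
Difference between replicates 2 and 1 on the log2(FPKM + 1) scale in glucose (horizontal) and in inosine (vertical), 1 point per gene of at least 1 FPKM, with 3 gene lists coloured and the line of equal change drawn. Interferon-stimulated genes lie in the upper right and the cytokine and hypoxia genes farthest from the origin in the lower left.

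Interferon-stimulated genes were the list with the most members called for the number. Interferons bind surface receptors and activate transcription factors that switch on antiviral genes, guanylate-binding proteins and immunity-related GTPases. All 44 measured members were higher in replicate 2 than in replicate 1 in glucose and also in inosine, against 4846 of 20618 genes overall (23.5%). The median difference was 0.81 (log2) in glucose and 0.65 in inosine. Of the 32 members averaging 1 FPKM or more, 23 passed the number test (71.9%, against 3% of all such genes), and the 23 were higher in number 2. This and the other gene lists were chosen with earlier results of these data known, and genes are not independent replicates. Iigp1, an immunity-related GTPase, was at 6.56, 28.2 and 19.2 FPKM in glucose replicates 1, 2 and 3 and at 5.73, 31.8 and 17.0 in inosine replicates 1, 2 and 3. Gbp2, a guanylate-binding protein, was at 14.3, 41.3 and 30.9 FPKM in glucose and 13.2, 49.4 and 33.3 in inosine. Igtp, another GTPase of this class, was at 49.97, 103.0 and 79.9 FPKM in glucose and 51.3, 112.1 and 81.0 in inosine. Irgm1, a regulator of that class, was at 14.9, 33.2 and 26.4 FPKM in glucose and 15.7, 37.9 and 26.7 in inosine. In each of these genes the replicates of equal number were close and the 3 numbers were well apart. That largely follows from their choice by the number test. Isg15, a ubiquitin-like protein, was at 1.32, 10.0 and 7.05 FPKM in glucose and 2.04, 8.25 and 4.94 in inosine. Between the media, the limma group test called 0 of these 44 genes, with 0 at an unadjusted p under 0.05, and the list's median difference was -0.03, beside -0.0006 over all genes.

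Promoters of 3 of these genes, whose levels moved together with the number, are shown. All 3 hold a match to a motif below, so they do not stand for every gene that moved with the number. The 250 bases before the annotated start were read from RefSeq (GRCm38.p6, the build of the authors' mm10 alignment), and each is written 5′ to 3′ along the gene. Capitals mark matches to the core of the interferon-stimulated response element, GAAANNGAAA on either strand, and to the gamma-activated site, TTCNNNGAA, which reads the same on both strands. Igtp, at chr11:58199306-58199555 on the plus strand, holds 1 match to each, in the order TTCNNNGAA and then GAAANNGAAA.
Igtp: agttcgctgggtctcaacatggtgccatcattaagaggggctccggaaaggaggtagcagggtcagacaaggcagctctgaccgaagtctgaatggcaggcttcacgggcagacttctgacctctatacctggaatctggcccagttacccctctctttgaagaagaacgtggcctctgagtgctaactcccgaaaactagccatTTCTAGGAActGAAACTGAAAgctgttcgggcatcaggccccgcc
Irgm1, at chr11:48871421-48871670 on the minus strand, holds 2 overlapping matches to GAAANNGAAA.
Irgm1: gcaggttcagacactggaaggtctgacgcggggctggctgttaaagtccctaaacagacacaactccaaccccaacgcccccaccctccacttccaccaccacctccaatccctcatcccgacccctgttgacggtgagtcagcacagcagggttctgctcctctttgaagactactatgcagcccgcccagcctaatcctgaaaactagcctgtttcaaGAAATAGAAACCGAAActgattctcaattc
Gbp2, at chr3:142620413-142620662 on the plus strand, holds 1 match to GAAANNGAAA, on the opposite strand.
Gbp2: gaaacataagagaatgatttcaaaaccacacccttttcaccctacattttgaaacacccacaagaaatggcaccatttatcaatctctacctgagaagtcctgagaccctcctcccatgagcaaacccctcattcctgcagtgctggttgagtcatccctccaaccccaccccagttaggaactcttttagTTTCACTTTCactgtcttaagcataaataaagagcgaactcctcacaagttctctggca
Of the 44 list members, 33 had a promoter in the table, and 16 of these genes (48.5%) held GAAANNGAAA, compared with 3.46% of the 27025 genes with a promoter there. The site TTCNNNGAA was found in 7 of the 33 (21.2%) and in 8.13% of all. Of the genes chosen by the number test, 7 had a promoter there, and 4 of these held GAAANNGAAA and 1 held TTCNNNGAA. Txnip, Ankrd37 and Cdkn2a held neither. Such a match is a description of letters and says nothing of binding in these cells.

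Several chemokine and cytokine genes also differed between the numbers. Of 22 measured list members, 13 were lower in number 2 than in number 1 in both media and 8 were higher. Over all 20618 genes, 4126 were lower and 4846 higher in this way. Ccl3, a chemokine for inflammatory cells, was at 48.3, 5.65 and 23.1 FPKM in glucose replicates 1, 2 and 3 and at 44.8, 8.83 and 28.3 in inosine replicates 1, 2 and 3. Its limma adjusted p for the number was 2.24e-12 among genes of at least 1 FPKM, but 0.481 over all genes. Xcl1, a chemokine for cross-presenting dendritic cells, was at 293.3, 58.2 and 163.0 FPKM in glucose and 252.3, 85.3 and 165.3 in inosine. Ifng, the interferon gamma gene, was at 258.6, 106.7 and 186.3 FPKM in glucose and 255.3, 158.7 and 199.98 in inosine. All 3 genes were highest in number 1 and lowest in number 2 of each medium, the opposite order to the interferon-stimulated genes. Il3 and Csf2, both growth factors for myeloid cells, had the same order. Of the 18 list members of at least 1 FPKM, 7 passed the number test (38.9%, against 3% of all such genes), 6 of them lower in number 2 and Lta higher. Ctla4, an inhibitory receptor, also followed this order, with 131.3, 57.0 and 101.3 FPKM in glucose and 136.8, 63.3 and 95.1 in inosine.

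Some hypoxia-response and glucose-uptake genes were lower in number 2. Without regard to the test, 13 of 16 measured hypoxia-response genes were lower in number 2 than in number 1 in both media and 0 higher. Of 25 glucose uptake and glycolysis genes, 18 were lower and 2 higher. Over all genes, 4126 of 20618 were lower in this way, as were 2292 of the 9879 of at least 1 FPKM. Of 15 hypoxia-response genes of at least 1 FPKM, 7 passed the number test (46.7%, against 3% of all such genes) and all 7 were lower in number 2 than in number 1. Ndrg1, a stress-induced gene, was at 24.1, 7.24 and 14.5 FPKM in glucose and 24.2, 5.93 and 15.95 in inosine. Egln3, an oxygen-sensing prolyl hydroxylase, was at 56.4, 28.6 and 41.3 FPKM in glucose and 58.8, 23.0 and 42.7 in inosine. Among 22 glycolysis genes of that level, 4 passed (18.2%), all lower in number 2. Slc2a3, the glucose transporter GLUT3, was at 116.2, 58.8 and 87.4 FPKM in glucose and 127.5, 51.0 and 85.2 in inosine (limma adjusted p = 6.03e-06 for the number with the filter). Slc2a1, the transporter GLUT1, was at 104.2, 72.6 and 82.1 FPKM in glucose and 108.2, 58.0 and 83.7 in inosine. For both transporters, libraries of equal number were closer than libraries 1 and 2 of either medium, and the groups overlapped. Of 29 integrated stress response genes, 6 passed (20.7%), among them Trib3, a pseudokinase induced by ATF4, and all 6 were lower in number 2.

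Txnip, which restrains glucose uptake and whose transcription is driven by the sugar-sensing factor MondoA, followed the number most closely of the genes chosen for glucose use. It was at 23.8, 71.0 and 48.5 FPKM in glucose replicates 1, 2 and 3 and at 26.6, 71.4 and 49.0 in inosine replicates 1, 2 and 3. The difference between the media was 0.06 ± 0.51 (log2, SE) in the group fit, and within pairs the inosine library was higher in all 3. The number test gave a limma adjusted p of 2.35e-08 among genes of at least 1 FPKM, while over all genes it called 0 of 20618. Arrdc4, a second target of MondoA, was at 0.299, 0.827 and 0.585 FPKM in glucose and 0.318, 0.969 and 0.550 in inosine, the same order at a low level. For both genes the 3 numbers were well apart in each medium, and libraries of equal number were close.

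**Figure D2:**
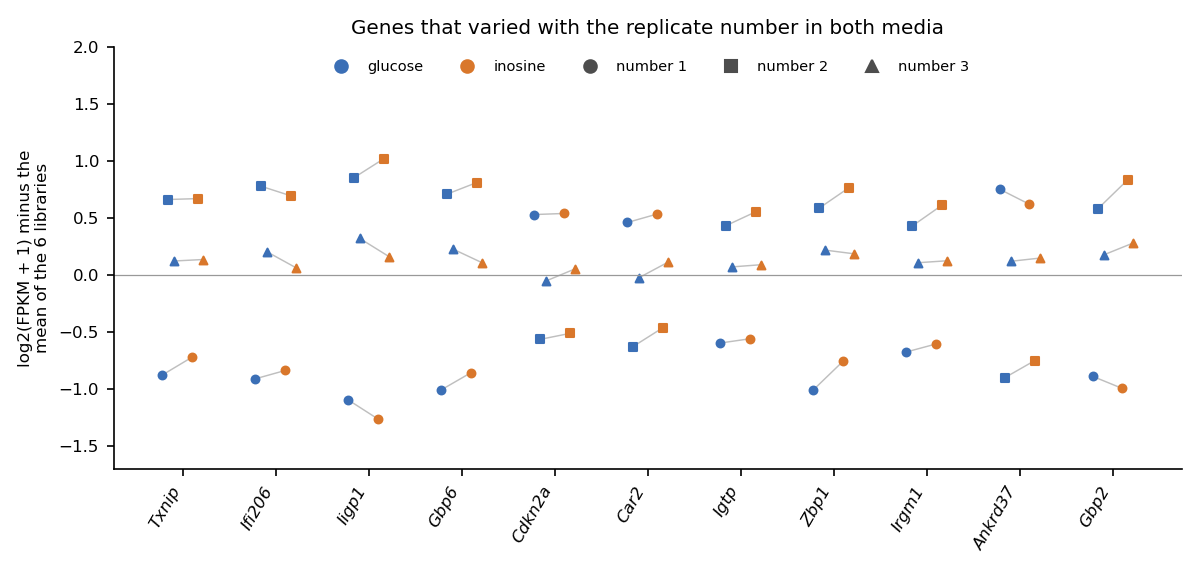
Deviation of each library from the mean of the 6 libraries on the log2(FPKM + 1) scale for 11 genes chosen by the number test, with glucose in blue, inosine in orange, the marker giving the replicate number and grey lines joining equal numbers. Lines are short and nearly level, while circles, squares and triangles are apart, as in Txnip at 23.8, 71.0 and 48.5 FPKM in glucose and 26.6, 71.4 and 49.0 in inosine. This pattern largely follows from how the genes were chosen.

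Genes that take up and break down inosine did not pass the test between media. Pnp was at 23.8, 23.7 and 24.7 FPKM in glucose and 23.4, 29.7 and 27.1 in inosine, a difference of 0.14 ± 0.09 (log2, SE). Hprt, the salvage enzyme for hypoxanthine, differed by 0.08 ± 0.08. Slc29a1, an equilibrative nucleoside transporter, differed by 0.01 ± 0.07. Pgm2, which converts ribose 1-phosphate to ribose 5-phosphate, was at 8.97, 8.77 and 8.18 FPKM in glucose and 9.19, 9.17 and 10.2 in inosine, so the groups did not overlap, but its limma adjusted p was 1. Over all genes, 459 (2.23%) did not overlap with inosine higher and 583 (2.83%) with inosine lower. Of the 27 measured genes of inosine breakdown and purine salvage, Pgm2 was the 1 whose groups did not overlap. Of the 10 pentose phosphate pathway genes, Rpia, which isomerizes ribose 5-phosphate, was the 1 whose groups did not overlap, at 40.9, 44.0 and 42.2 FPKM in glucose and 40.4, 40.2 and 38.0 in inosine. Tkt and Taldo1, which return pentoses to glycolysis, differed by -0.08 ± 0.13 and 0.05 ± 0.08.

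Glycolytic enzymes did not pass the test between media either. Ldha, lactate dehydrogenase A, differed by 0.05 ± 0.07 (log2, SE), with a 95% interval from -0.11 to 0.22. Pkm, the pyruvate kinase, differed by 0.03 ± 0.08, and Gapdh by 0.18 ± 0.12. Hk2, hexokinase 2, differed by -0.07 ± 0.18. The median over 25 glucose uptake and glycolysis genes was -0.03, with medians of -0.02, -0.10 and 0.08 in pairs 1, 2 and 3. No direction was shared by the 3 pairs.

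Among 29 T cell effector genes, 0 were called by the limma group test, with 0 at an unadjusted p under 0.05. Gzmb, the protease granzyme B, was the most abundant of these, between 5417 and 5671 FPKM in glucose and between 5515 and 5689 in inosine, and differed by 0.02 ± 0.05 (log2, SE; 95% interval -0.12 to 0.15). Prf1, the pore-forming perforin, was at 225.2, 152.6 and 174.6 FPKM in glucose and 231.2, 133.5 and 192.8 in inosine, low in number 2 of both. Tnf differed by 0.06 ± 0.14, and Pdcd1, the receptor PD-1, by 0.08 ± 0.16. Cd3e, a chain of the T cell receptor complex, was at 95.7, 105.2 and 86.3 FPKM in glucose and 85.0, 78.7 and 84.8 in inosine. Every inosine library was thus below every glucose library in FPKM, as in 2.83% of all genes, with a limma adjusted p of 1. Its reads, scaled for library depth, overlapped between the groups. Carm1, the arginine methyltransferase in the series' title, was at 24.7, 24.9 and 22.8 FPKM in glucose and 24.5, 16.3 and 23.7 in inosine, and its low value belonged to inosine replicate 2 alone. Myc was low in that library as well, at 48.5 FPKM beside 64.7 to 71.8 in the other libraries.

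**Figure D3:**
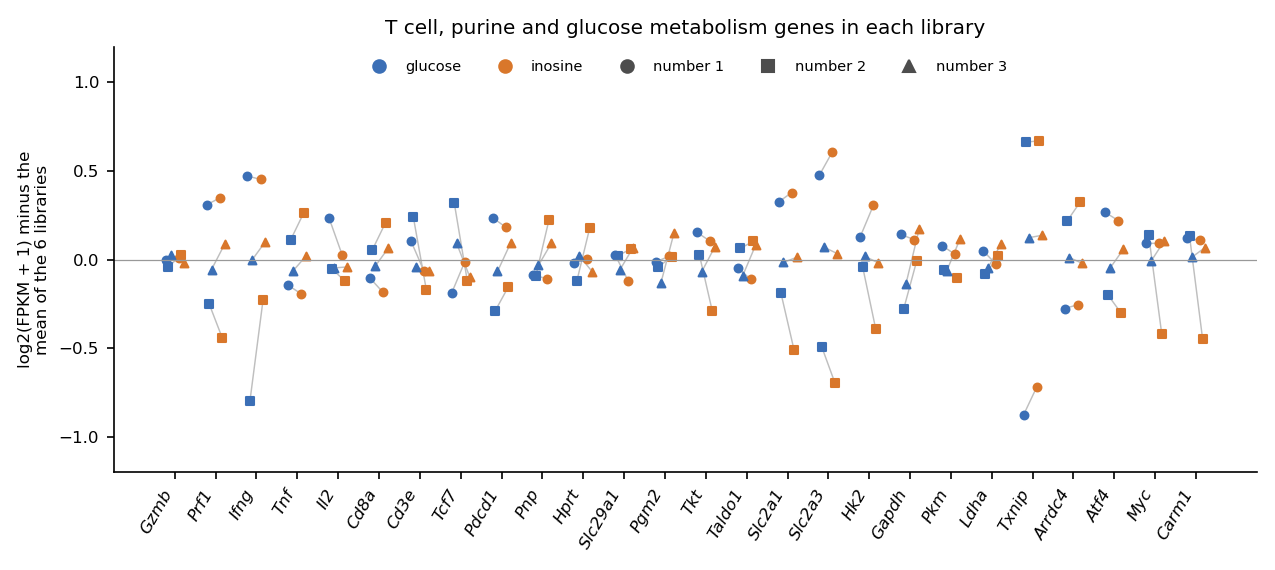
Deviation of each library from the mean of the 6 libraries on the log2(FPKM + 1) scale for 26 genes of T cell function, inosine use and glucose use, with glucose in blue, inosine in orange and grey lines joining equal numbers. The colours are mixed in most genes. Ifng, Slc2a3 and Txnip separate by marker shape, and Carm1 and Myc show 1 low inosine library.

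Mitochondrial transcripts were higher in inosine replicate 2 than in the other 5 libraries. The genes encoded by mitochondrial DNA took 4.21%, 4.03% and 4.70% of all FPKM in glucose replicates 1, 2 and 3 and 4.47%, 6.50% and 4.82% in inosine replicates 1, 2 and 3. The group difference was 0.952 percentage points (two-sided exact permutation p = 0.2, where 0.1 is the smallest possible). Without inosine replicate 2 it was 0.335. COX1, subunit 1 of cytochrome c oxidase, was at 3935 to 4537 FPKM in glucose and 4394, 7366 and 5153 in inosine. The median over 13 such genes was -0.03, 0.79 and 0.05 (log2) in pairs 1, 2 and 3. Cytosolic ribosomal protein genes, 65 in number, had their highest median in the same pair, with of -0.15, 0.33 and 0.01, and 69 nuclear genes of oxidative phosphorylation had -0.15, 0.20 and -0.10. No gene of these 3 lists was called between the media, and the part of cell state or RNA quality in that library's values was not tested.

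**Figure D4:**
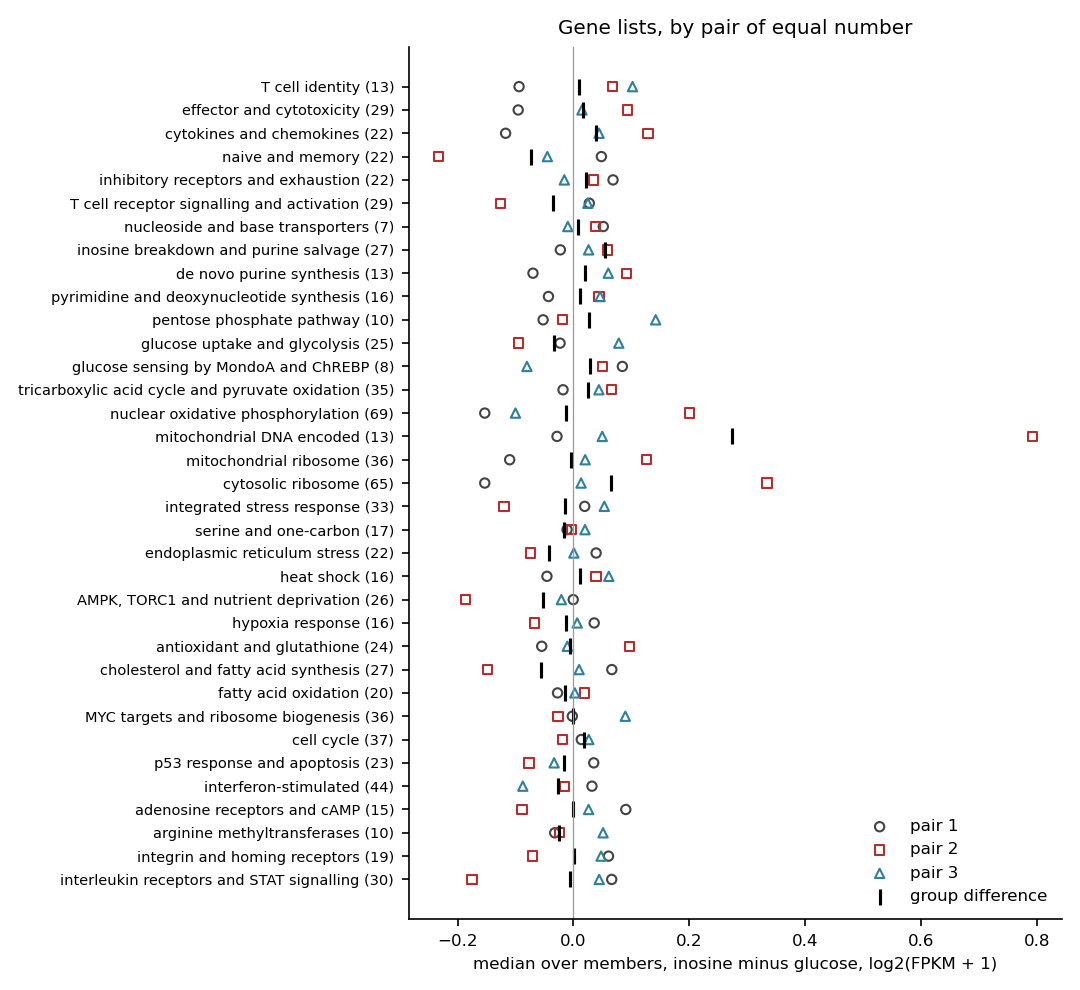
Median difference, inosine minus glucose on the log2(FPKM + 1) scale, over the measured members of each of 35 gene lists (number in brackets), for each pair of equal number (open symbols) and for the groups (black bar). Most medians lie between -0.2 and 0.2, and the mitochondrial DNA list stands out at 0.79 in pair 2 alone.

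The remaining lists gave few calls and small medians. Of 36 mitochondrial ribosome genes, all of at least 1 FPKM, 11 were lower with inosine in all 3 pairs and 1 was higher. Among the 9879 genes of that level, 1043 were lower in this way and 750 higher. Over all genes the shares were 8.51% lower and 7.31% higher. The list's median difference was -0.004. Mrps34, a protein of the small mitochondrial ribosomal subunit, was at 44.4, 42.2 and 37.2 FPKM in glucose and 39.2, 30.7 and 32.6 in inosine. Mrpl1, of the large subunit, had the other sign, at 7.74, 7.02 and 7.27 FPKM in glucose and 9.5, 8.67 and 7.69 in inosine. Of 26 genes of AMPK, TORC1 and nutrient deprivation, 7 were lower in all 3 pairs, among them Ddit4, an inhibitor of TORC1, at 165.5, 113.1 and 128.2 FPKM in glucose and 157.5, 85.3 and 118.0 in inosine. Neither Mrps34, Mrpl1 nor Ddit4 passed the test between the media. Of 37 cell cycle genes, all of at least 1 FPKM, 25 were higher in number 2 than in number 1 in both media and 3 were lower. In this way, 2878 of the 9879 genes of that level were higher, and 23.5% of all genes. The number test called 2 of the 37, a share near the 3% of all genes of at least 1 FPKM. Pcna, the sliding clamp of DNA replication, was at 315.3, 355.9 and 349.8 FPKM in glucose and 316.2, 415.0 and 369.4 in inosine.

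Trex1, Atrip and their read-through transcript made up the locus with 2 of the 3 genes called with the block and the filter. Trex1 encodes a DNA exonuclease that clears cytosolic DNA, and Atrip encodes the partner of the ATR checkpoint kinase. They are neighbours on the minus strand of mouse chromosome 9 (GRCm38.p6), Trex1 at chr9:109057932-109059723 and Atrip at chr9:109059747-109074124. A long noncoding read-through gene, Atrip-trex1, at chr9:109057933-109074097, overlaps both. Trex1 was at 4.25, 1.44 and 1.65 FPKM in glucose and 7.21, 5.59 and 5.08 in inosine, a mean ratio of 2.44. Atrip was at 1.43, 1.81 and 1.37 FPKM in glucose and 4.16, 3.11 and 2.07 in inosine, a mean ratio of 2.03. Both were higher in all 3 pairs, as were 7.31% of all genes, and their groups did not overlap. The differences were 1.09 ± 0.13 and 0.67 ± 0.12 (log2, SE) in the limma fit with the block on genes of at least 1 FPKM, with adjusted p of 1.66e-05 and 0.0187, but each adjusted p was 1 in the group fit over all genes. Without both libraries numbered 1, the fit with the block and the filter still called Trex1 but no longer Atrip (limma adjusted p = 0.298).

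Reads assigned to the read-through gene, divided by the library's size factor, were lower in the inosine libraries. They were 1077, 1219 and 1159 in glucose and 574.9, 936.3 and 1014 in inosine, from 870, 1145 and 1550 whole reads and 547, 1040 and 982. The difference in its FPKM was not called by any of the limma fits (adjusted p = 1 in the group fit). It held 72.2%, 80.1% and 81.5% of the reads of the 3 genes in glucose and 38.7%, 57.1% and 65.0% in inosine. A two-sided exact permutation test gave p = 0.1, the smallest that 3 against 3 allows. The locus was chosen because Trex1 and Atrip were called higher with inosine, and this share falls as their reads rise. Its separation largely follows from that choice, so the p is no independent test. The reads of the 3 genes together, divided by the library's size factor, were 1479 ± 50.8 in glucose and 1561 ± 78.0 in inosine (SD, n = 3 each; exact permutation p = 0.3). The summed locus therefore differed by less than its parts. Because the 3 annotations share sequence, reads of 1 transcript may be counted for another, and the values of each gene alone are uncertain.

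**Figure D5:**
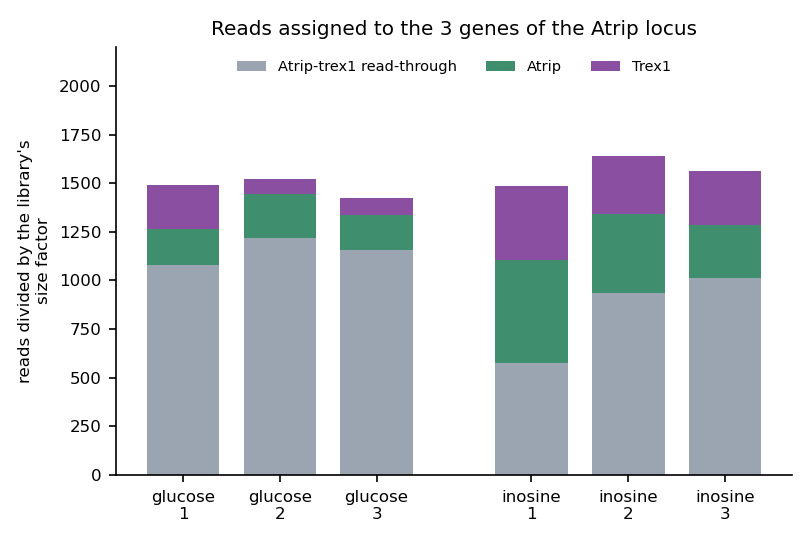
Whole reads assigned to the read-through gene (grey), Atrip (green) and Trex1 (purple), divided by the library's size factor and stacked, in each of the 6 libraries. The stacks have similar heights, between 1423 and 1640, while the grey share is smaller in every inosine library.

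Exosc6, a subunit of the RNA exosome, lies at chr8:111056339-111057664 and overlaps no annotated gene. It was at 0.175, 0.968 and 0.561 FPKM in glucose and 2.00, 2.22 and 1.12 in inosine, from 10, 59 and 50 reads and 126, 166 and 74 reads. It was higher in all 3 pairs (log2 difference 0.83 ± 0.13 SE, limma adjusted p = 0.00768 with the block and the filter), and voom on whole reads with the block gave an adjusted p of 0.197. Its mean was 0.568 FPKM in glucose and 1.78 in inosine, so it passed the filter of 1 FPKM only through inosine. The filtered call is thus no independent support. Over all genes, limma with the block gave an adjusted p of 0.958. Sp6, a zinc finger transcription factor, was at 36, 80 and 70 reads in glucose and 0, 6 and 0 in inosine, all under 0.5 FPKM. In the authors' deposited table it has a log2 fold change of -4.97 and an adjusted p of 4.35e-06, the only adjusted p under 0.05 there. Voom with the block also called it (adjusted p = 5.19e-11), together with Trex1, Atrip, Dram1, Npcd and Nhsl2, which makes 6 of 13336 genes (0.045%). Without the block, voom called 0 of these 13336 genes and gave Sp6 an adjusted p of 0.372. Sp6, Dram1 and Nhsl2 passed the filter of 10 reads only through the medium where they were higher, so their calls are no independent support. Dram1, Npcd and Nhsl2 were at most 0.352 FPKM in any library and were named after their values were seen.

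The authors' deposited table marks 51 genes as significant, 34 higher and 17 lower with inosine, and 46 of them have a mean under 1 FPKM. Some of the largest fold changes there rest on libraries that differ within a group. Xcr1, a chemokine receptor of dendritic cells and the receptor for Xcl1, had 408, 0 and 624 reads in glucose and 0 in all 3 inosine libraries. Rsc1a1, which lies inside Ddi2 on chromosome 4, had 510, 2 and 687 reads in glucose and 9, 34 and 2 in inosine. Glucose replicate 2 was like the inosine libraries for both genes, so their groups overlapped. In the dendritic marker sums given above, Xcr1 contributed 2.23 FPKM in glucose replicate 1 and 2.10 in glucose replicate 3.

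For Atp5d, a subunit of the mitochondrial ATP synthase, the deposited FPKM and the whole reads disagreed. The FPKM were 253.6, 237.5 and 174.9 in glucose and 122.3, 103.3 and 156.3 in inosine, a difference of -0.80 ± 0.20 (log2, SE) that had no overlap of groups. The reads were 9651, 10124 and 13414 in glucose and 9891, 9892 and 9915 in inosine, and voom gave -0.15 ± 0.10. It was the only gene of 6848 with at least 5 FPKM whose 2 measures were over 0.5 apart. The authors' deposited table, computed from counts, gives -0.15 for it. The gene overlaps Cbarp at chr10:80138698-80145828.

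Another 12 genes were chosen for the smallest p among those moving alike in the 3 pairs, with log2 differences from -0.40 in Rplp2 to 0.49 in Dnaaf4 and 1.09 in Trex1. None was called in the group fit, and Trex1 alone of the 12 was called with the block and the filter. For Dnaaf4, which averaged 1.04 FPKM, voom on whole reads gave 0.24 ± 0.16 (log2, SE), less than its FPKM difference. Mrnip, a DNA repair factor, was at 3.66, 3.83 and 3.82 FPKM in glucose and 4.55, 4.95 and 4.75 in inosine, a difference of 0.27 ± 0.06 (log2, SE). Dnajc12, a co-chaperone, was at 3.21, 2.54 and 3.38 FPKM in glucose and 4.30, 3.65 and 4.67 in inosine. In the other direction, Ppa2, the mitochondrial pyrophosphatase, was at 17.0, 16.1 and 15.8 FPKM in glucose and 13.97, 12.2 and 13.7 in inosine, a difference of -0.28 ± 0.07. Hras, the small GTPase, was at 48.6, 41.7 and 42.2 FPKM in glucose and 37.9, 36.7 and 34.6 in inosine. In these 4 genes the groups did not overlap in FPKM, which largely follows from how they were chosen. Over all genes, 2.23% were higher and 2.83% lower without overlap. The reads of Hras, divided by the library's size factor, did overlap between the groups. Voom gave -0.17 ± 0.12 for Hras, beside -0.27 ± 0.08 in FPKM (log2, SE). Fth1, the ferritin heavy chain, which stores iron, was named from the antioxidant list and was at 516.8, 567.9 and 482.7 FPKM in glucose and 454.1, 396.9 and 442.7 in inosine.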

How the data were processed

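RNA-seq of 3 glucose and 3 inosine libraries was analysed from the authors' deposited table of FPKM. Reads were aligned to mm10 with HISAT2, counted with featureCounts (Subread 2.0.1) and tested with DESeq2 1.38.3, per the submitters' processing notes. That deposited table also holds group means of size-factor-scaled counts (a signal), a log2 fold change and p-values. Whole reads were solved from the deposited group means of 2 tables, with FPKM ratios as a guide, and came out for 100% of 20618 genes. Their depth is given with the results; FPKM themselves carry no counting interval.

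The test was limma 3.58.1 (R 4.3.3) on log2(FPKM + 1), with a variance trend and robust shrinkage, and p-values were adjusted over all genes (Benjamini-Hochberg). Fold changes on this scale understate the change of low genes. The replicate number was a block in a second fit, and an F test of the number came from it. A filter of 1 FPKM, other pseudocounts, scalings and voom were alternatives. Scripts were tested on simulated data, where both fits over all genes were far less sensitive than the block fit with the filter. That setting favoured the block and the filter, since libraries of equal number shared a starting level and changed genes were drawn above the filter. The gene lists and named genes were chosen with earlier results of these data known; genes were named from a fixed set, by the smallest p of the block and number tests, by list, and by the largest deposited fold changes; some of the genes so chosen are not reported here. Ccl3, Xcl1, Il3, Csf2, Ndrg1, Egln3, Isg15, Trib3, Cd8b1, Sp6, Xcr1, Rsc1a1, Dram1, Npcd, Nhsl2 and Atrip-trex1 were added after their values were seen. Antisense and overlapping genes cannot be told apart, since the strand setting of the counting is not given in the sources used here.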

Additional observations from a re-analysis of the deposited data

How the results depend on the processing

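The group comparison called 0 genes with either other pseudocount, the 1 FPKM filter, median-of-ratios scaling, voom or limma without trend, and with the replicate block alone. The block with the filter called 3 genes, all higher, of which Exosc6 passed the filter only through inosine. Voom on at least 10 reads with the block, added after seeing the data, called 6, with 3 higher and 3 lower. Of these, Sp6, Dram1 and Nhsl2 passed the read filter only through the medium where they were higher. Leaving out 1 library gave 0 to 8 calls in all, 0 to 8 higher and 0 to 2 lower. The 8 came without inosine replicate 2, 4 without inosine replicate 3 and 2 without glucose replicate 2. Leaving out both libraries of a number, the block gave 0 calls. With the filter, added after seeing the data, it gave 14 (6 higher, 8 lower) without number 1, 20 (11 higher, 9 lower) without number 2 and 7 (4 higher, 3 lower) without number 3, each with 1 residual degree of freedom per gene. Trex1, Exosc6 and Atp5d were among the genes called in all 3 of these, while Atrip lost its call without number 1.

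The number test called 0 genes in the main setting, 296 with the filter, 134 with voom on all genes and 433 with voom on at least 10 reads. With the filter it called 75 without number 1, 231 without number 2 and 312 without number 3. Same-number correlations did not all pass the threshold of 0.1 (0.41, 0.26 and -0.26; with other settings -0.31 to -0.20 for number 3), and the labels do not say what a number stands for, so the numbers were not treated as pairs and the replicate block is an alternative fit, which moved the main count from 0 to 0. The share of mitochondrial FPKM was 0.335 to 1.35 points higher with inosine when 1 library was left out.

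For 183 named genes, 4471 values under alternatives held 286 changes of sign, none in a gene called in either setting. Of 35 list medians, 34 moved under the filter by less than their spread over pairs. With 3 libraries per group, a single-value permutation test cannot go below 0.1, or 0.25 over 3 pairs.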
